A study of Homo sapiens with 10 samples.

Results

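The expression of 10 genes of glucose use and of the response to low oxygen was followed in the human melanoma line MDA-MB-435, stimulated with hepatocyte growth factor (HGF) or transduced with integrin beta4 (ITGB4). The genes are SLC2A1, HK2, PFKFB3, PGK1, ENO1, LDHA, PDK1, ADM, BNIP3 and P4HA1. Every probe set annotated with one of these symbols and with no other symbol was taken, which gave 18 probe sets out of 22215 on the Affymetrix hgu133a array, and 10 of 11963 genes named by a single symbol. Of these, 14 probe sets of 9 genes passed a filter on low signal (a second-highest value of at least 7.3 over the 10 arrays) and were tested.

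The series holds 10 arrays in 5 groups of 2, described as biological duplicates. MDA-MB-435 cells without treatment served as the common reference, and the same cells received HGF for 1, 6 or 24 h. The remaining group was MDA-MB-435 transduced to express ITGB4 stably. Its sample descriptions also carry the term "Mock", and no separate mock-transduced group was analysed here, so transduction and ITGB4 cannot be told apart. No group combined HGF with ITGB4, and each HGF time is compared with the same untreated arrays. The dose of HGF is not given in the sources used here.

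Values are log2 signals after robust multi-array averaging (RMA), and a difference of 1 is a doubling on the linear scale. The 3 ITGB4 probe sets that passed the filter stood between 10.29 and 13.23 on both arrays of the transduced cells. They stood between 4.65 and 6.86 on the other 8, as the labels give it, and so passed through the transduced arrays alone. The remaining ITGB4 probe set did not pass. It gave 5.06 and 5.47 in the transduced cells, within its range of 4.90 to 5.58 on the other 8 arrays. All 9 melanocyte lineage genes on the array passed the filter, as did 2 of 8 epithelial genes (KRT18 and ESRP1), 2 of 6 fibroblast genes (DCN and COL1A1) and 0 of 4 leukocyte genes. CDH1, EPCAM, COL3A1 and PTPRC were among those that did not pass. Over each whole list the group means of the mean log2 level ran from 11.16 to 11.41 for melanocyte, from 5.79 to 5.96 for epithelial, from 6.64 to 6.78 for fibroblast and from 6.18 to 6.33 for leukocyte genes. Within the lists ESRP1 rose by 0.76 from 1 to 6 h and fell by 0.62 to 24 h, KRT18 fell by 0.52 between the same times, and MITF rose by 0.46 there. At 6 h against untreated cells 4 of the 14 melanocyte probe sets were lower, where 2.33% of all tested were, among them MITF (-0.81, limma adjusted p = 0.0126), the lineage transcription factor, and TYR (-0.48, adjusted p = 0.0392), tyrosinase. These move with the HGF time as the results below do, and their part in them was not tested. Array medians lay between 6.81 and 6.88.

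Glucose enters the cell through transporters such as SLC2A1 and is trapped by phosphorylation by hexokinases such as HK2. PFKFB3 makes the activator of phosphofructokinase, PGK1 and ENO1 carry out later steps, and LDHA turns pyruvate into lactate. PDK1 is a kinase that restrains pyruvate dehydrogenase, and so the use of pyruvate in mitochondria. In low oxygen the hypoxia-inducible factors (HIF), dimers of an oxygen-sensitive alpha subunit such as HIF1A with ARNT, induce these genes together with ADM, a secreted vasodilator peptide, BNIP3, a mitochondrial protein that promotes mitophagy, and P4HA1, a collagen prolyl hydroxylase. Growth factor receptors, among them the HGF receptor MET, can also raise HIF and glycolytic genes in normal oxygen. The oxygen level during culture was not measured here.

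HIF binds the core motifs ACGTG and GCGTG, and the upstream sequences of 6 of the genes are shown because the later comparisons separate them into genes that moved with HGF time and genes that did not pass the test. Each is the 250 bases before a RefSeq gene start in GRCh38.p14, printed 5′ to 3′ along the gene, with every match to either motif on either strand in capitals (the reverse complements read CACGT and CACGC, and CACGTG matches ACGTG on both strands). For PFKFB3, HK2 and LDHA, which have 2 starts each in the table, the start with more matches is shown.
ADM, chr11:10304823-10305072, plus strand: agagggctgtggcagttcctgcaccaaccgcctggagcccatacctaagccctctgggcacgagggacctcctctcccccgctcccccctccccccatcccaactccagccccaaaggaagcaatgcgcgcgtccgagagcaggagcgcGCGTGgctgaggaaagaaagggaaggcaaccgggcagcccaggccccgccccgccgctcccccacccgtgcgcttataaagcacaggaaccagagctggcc
SLC2A1, chr1:42958869-42959118, minus strand: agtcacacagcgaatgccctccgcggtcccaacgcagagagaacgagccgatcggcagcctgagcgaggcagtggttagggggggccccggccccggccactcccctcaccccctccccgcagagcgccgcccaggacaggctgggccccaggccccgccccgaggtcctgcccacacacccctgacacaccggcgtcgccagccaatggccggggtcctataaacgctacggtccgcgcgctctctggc
PFKFB3, chr10:6202682-6202931, plus strand: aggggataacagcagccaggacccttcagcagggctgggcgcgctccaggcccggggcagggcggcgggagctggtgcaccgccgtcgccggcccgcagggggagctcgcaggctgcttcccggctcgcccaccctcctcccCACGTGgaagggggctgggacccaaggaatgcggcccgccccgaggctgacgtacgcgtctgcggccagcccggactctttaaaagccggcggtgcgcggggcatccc
HK2, chr2:74834920-74835169, plus strand: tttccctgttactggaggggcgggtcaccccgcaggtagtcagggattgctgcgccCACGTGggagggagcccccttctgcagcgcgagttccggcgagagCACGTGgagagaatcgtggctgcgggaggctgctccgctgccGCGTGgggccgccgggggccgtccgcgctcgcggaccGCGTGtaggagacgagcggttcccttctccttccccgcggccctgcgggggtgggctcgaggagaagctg
PGK1, chrX:78103998-78104247, plus strand: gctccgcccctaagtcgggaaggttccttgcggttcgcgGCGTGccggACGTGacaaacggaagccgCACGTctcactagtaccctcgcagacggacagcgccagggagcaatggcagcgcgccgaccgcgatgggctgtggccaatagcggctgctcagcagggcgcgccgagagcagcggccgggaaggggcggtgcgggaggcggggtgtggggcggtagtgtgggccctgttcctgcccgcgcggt
LDHA, chr11:18394313-18394562, plus strand: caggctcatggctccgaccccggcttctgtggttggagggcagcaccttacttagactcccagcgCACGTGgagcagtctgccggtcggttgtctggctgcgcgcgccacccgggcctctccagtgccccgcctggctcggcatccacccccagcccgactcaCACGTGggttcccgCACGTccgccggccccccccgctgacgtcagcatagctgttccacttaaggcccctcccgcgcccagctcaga
The upstream sequence of ADM held 1 match, that of SLC2A1 0, that of PFKFB3 2, that of HK2 6, that of PGK1 3 and that of LDHA 5. Over the 10 genes, 12 of 14 upstream sequences held a match. The genes were chosen as HIF targets and glycolytic enzymes, so this share is not a result of these data. Among all 35116 upstream sequences of this length in the table, 18.5% held ACGTG, 32.2% held GCGTG and 43.2% held either. These numbers count each CACGTG on both strands and hold for the starts shown. The other start held 1 match for PFKFB3, 3 for HK2 and 1 for LDHA. Whether the matches bear on the response of the genes was not tested. A match is a description of letters and not of binding, and elements outside the 250 bases were not searched.

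The 4 genes ADM, SLC2A1, PFKFB3 and HK2 had their highest values after 6 h of HGF, on both arrays, above all 8 other arrays. The same order was found in 12.8% of all tested probe sets. At 6 h against untreated cells none of the 4 passed the test (limma adjusted p from 0.0555 to 0.100). By 24 h all 4 had fallen, by 1.24 for ADM, 0.94 for SLC2A1, 0.69 for PFKFB3 and 0.47 for HK2 on the log2 scale, and between 1 and 6 h ADM and PFKFB3 had risen. The lower glycolytic enzymes PGK1, ENO1 and LDHA, and BNIP3 and P4HA1, passed the test in no comparison. The comparisons between HGF times share the 6 h arrays, so a rise before 6 h and a fall after it are not independent of each other. The plot of the genes by array shows the values in each library.

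**Figure D1:**
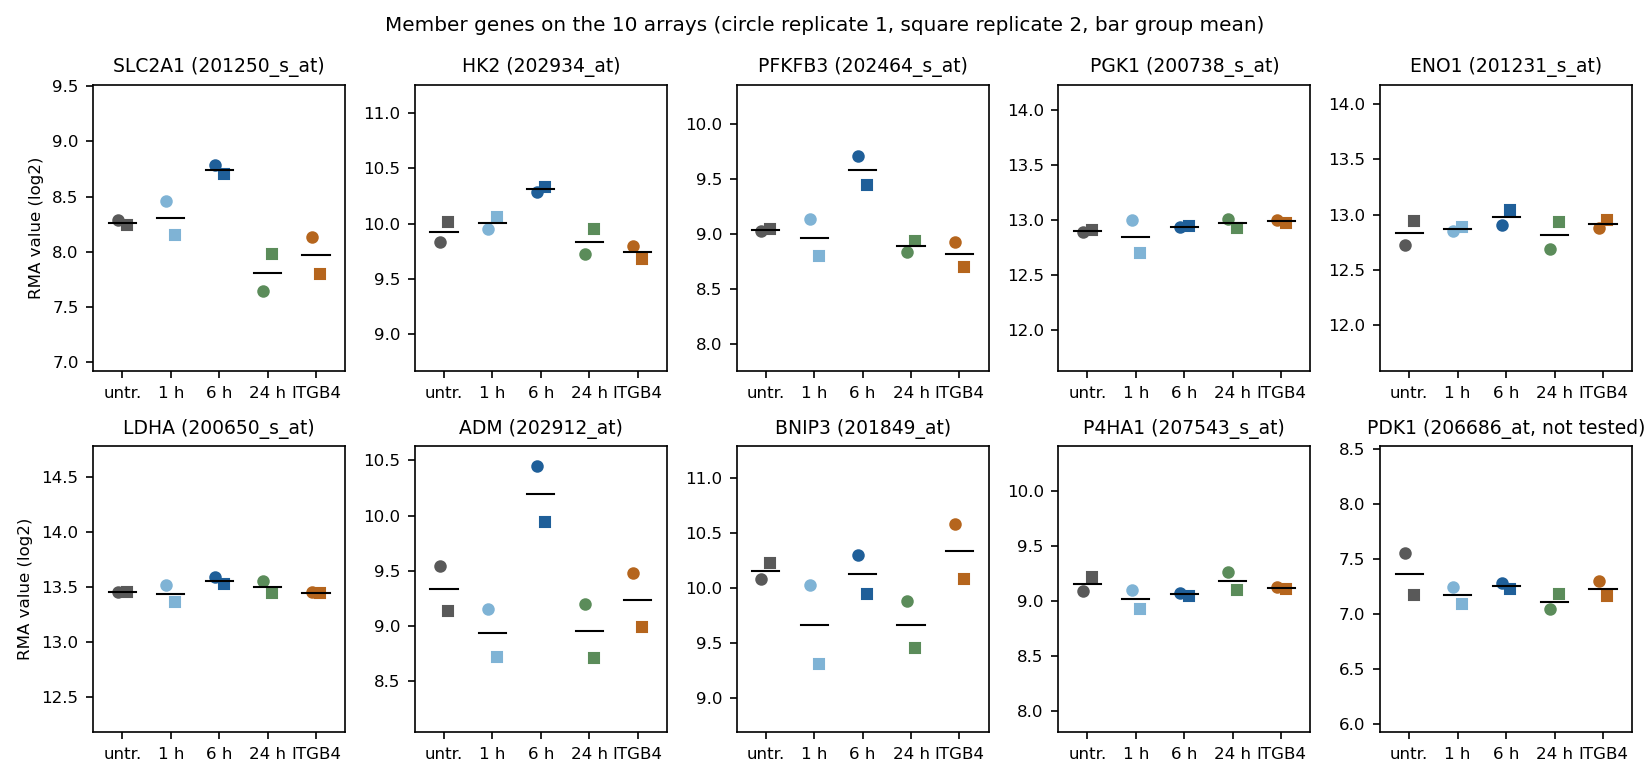
RMA log2 values (y axis) of the 10 genes in each of the 5 groups (x axis), 1 panel per gene with its brightest probe set. Circles are replicate 1, squares replicate 2 and bars the group mean, and the y axes span the same number of log2 units. ADM, SLC2A1, PFKFB3 and HK2 are highest at 6 h on both arrays. PDK1 did not pass the filter.

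The counts over all tested probe sets give the scale. With limma and Benjamini-Hochberg adjustment, called at an adjusted p under 0.05, 2 of the 14 member probe sets were higher at 6 h than at 1 h and 0 were lower, where 11.9% of the 10176 tested probe sets were higher and 6.4% lower. From 6 to 24 h, 4 of 14 were lower and 0 higher, where 12.5% of all were lower and 6.95% higher. Against untreated cells, 0 of 14 were called at 6 h, where 3.88% of all were higher and 2.33% lower, although 4 had an unadjusted p under 0.05. At 1 h, 0 of 14 were called and 0 had an unadjusted p under 0.05, where 0.58% of all were higher and 5.09% lower. At 24 h, 0 of 14 were called and 1 had an unadjusted p under 0.05, where 0% of all were called in either direction by limma or the Mulcom t (1134 probe sets had an unadjusted p under 0.05). In ITGB4-transduced cells the counts were 0 and 1, where 0.0491% of all were higher and 0% lower. Between 24 and 1 h they were 0 and 1, where 0.00983% of all were higher and 0% lower. The Mulcom t with no minimal difference, the study's statistic with the spread pooled over groups but not moderated, called 0 of 14 in all 7 comparisons. Its p-values here came from the t distribution with 5 degrees of freedom and Benjamini-Hochberg adjustment. The study instead tuned t and a minimal difference by a false discovery rate from sample permutations. The counts given here for the Mulcom t are therefore not the study's Mulcom calls.

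The position of the 6 h arrays can be read in the same way. Both 6 h arrays lay above the other 8 in 4 of the 14 member probe sets and in 12.8% of all tested probe sets, and below the other 8 in 0 of 14 and in 10.2% of all. The median difference between 6 and 1 h was 0.10 over the members and -0.02 over all, and that between 24 and 6 h was -0.06 and -0.01. The members differed widely in how far they moved. The range of group means was 1.26 for ADM, 0.94 for SLC2A1, 0.76 for PFKFB3 and 0.57 for HK2. It was 0.67 for one BNIP3 probe set and 0.56 for a dim ENO1 probe set, and between 0.073 and 0.21 for the other 8, against a median of 0.42 over all tested probe sets.

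ADM, probe set 202912_at, gave 9.54 and 9.13 in untreated cells and 9.15 and 8.72 at 1 h of HGF. It gave 10.45 and 9.94 at 6 h, 9.20 and 8.71 at 24 h and 9.48 and 8.99 in ITGB4-transduced cells. The 6 h values did not overlap with any other group, whereas those of the other 4 groups overlapped with one another. Group means ran from 10.20 ± 0.36 (SD, n = 2) at 6 h through 9.34 ± 0.29 in untreated and 9.23 ± 0.34 in ITGB4-transduced cells to 8.95 ± 0.35 at 24 h and 8.94 ± 0.31 at 1 h. Between 1 and 6 h ADM rose by 1.26 (SE 0.25, limma adjusted p = 0.00925), a 2.40-fold change, and between 6 and 24 h it fell by 1.24 (adjusted p = 0.00726), 2.37-fold. The difference between 6 h and untreated cells was 0.86 with a 95% interval from 0.32 to 1.40 and did not pass (adjusted p = 0.0613). It passed with the spread of the 2 compared groups alone (adjusted p = 0.0163) and without either ITGB4 array (adjusted p = 0.0463 and 0.0469).

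Replicate 1 was above replicate 2 for ADM in all 5 groups, by 0.41 to 0.50, so the spread within groups was large and alike. The same sign in all groups was found in 12.5% of tested probe sets. With the replicate number as a block, ADM was called at 6 h against untreated cells (0.86, adjusted p = 0.00322) and at 1 h (-0.40, adjusted p = 0.0487). The labels do not say that the numbers pair the arrays. Without 6 h replicate 1 the rise from 1 to 6 h was 1.01 (adjusted p = 0.0743) and the fall to 24 h was -0.99 (adjusted p = 0.0669), and neither passed.

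SLC2A1, the widely expressed glucose transporter GLUT1, gave 8.28 and 8.24 in untreated cells, 8.46 and 8.15 at 1 h and 8.78 and 8.71 at 6 h on probe set 201250_s_at. At 24 h it gave 7.64 and 7.97, and in ITGB4-transduced cells 8.13 and 7.80. The 6 h arrays stood highest and the 24 h arrays overlapped only with the ITGB4-transduced ones, both below the untreated pair. From 6 to 24 h SLC2A1 fell by 0.94 (SE 0.16, adjusted p = 0.00410), 1.91-fold, and this call was kept when any of the 10 arrays was left out. The differences at 6 h (0.48, adjusted p = 0.100) and at 24 h (-0.45, adjusted p = 0.400) against untreated cells did not pass, nor did that between 1 and 6 h (0.44, adjusted p = 0.0789). The last passed after cyclic loess (0.47, adjusted p = 0.0494). The difference at 6 h against untreated cells passed with the spread of the 2 compared groups alone (adjusted p = 0.0142). The other SLC2A1 probe set, 201249_at, stayed between 5.03 and 5.63 and was not tested.

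PFKFB3, whose product drives flux through phosphofructokinase, gave 9.03 and 9.04 in untreated cells and 9.13 and 8.80 at 1 h. It reached 9.71 and 9.45 at 6 h and gave 8.84 and 8.94 at 24 h and 8.93 and 8.70 in ITGB4-transduced cells. The 4 groups other than 6 h lay within 8.70 to 9.13. PFKFB3 rose by 0.61 (SE 0.15, adjusted p = 0.0193) from 1 to 6 h, 1.53-fold, and fell by 0.69 (adjusted p = 0.0105) from 6 to 24 h, 1.62-fold. Its difference at 6 h against untreated cells was 0.54 (95% interval 0.21 to 0.87, adjusted p = 0.0555). That difference passed with the replicate block (adjusted p = 0.0371), with the spread of the 2 compared groups alone (adjusted p = 0.0159) and without either 1 h or either ITGB4 array (adjusted p from 0.0444 to 0.0463). It also passed with the probe sets of each gene averaged (adjusted p = 0.0468). Left-out arrays ended these calls. The rise was 0.45 (adjusted p = 0.0853) without 1 h replicate 2, 0.48 (adjusted p = 0.147) without 6 h replicate 1 and 0.75 (adjusted p = 0.0680) without 6 h replicate 2. The fall was -0.56 (adjusted p = 0.0933) without 6 h replicate 1 and -0.64 (adjusted p = 0.0626) without 24 h replicate 1.

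HK2, the hexokinase isoform of growing and tumour cells, gave 9.83 and 10.02 in untreated cells, 9.95 and 10.06 at 1 h and 10.29 and 10.33 at 6 h on probe set 202934_at. At 24 h it gave 9.72 and 9.95 and in ITGB4-transduced cells 9.80 and 9.68. The 6 h pair lay closest together and above all other arrays, and each other group overlapped with its neighbour in the order of the means. HK2 fell by 0.47 (SE 0.13, adjusted p = 0.0258) from 6 to 24 h, 1.39-fold. The differences of 6 h from untreated cells (0.39, adjusted p = 0.0957) and from 1 h (0.31, adjusted p = 0.114) did not pass. The difference from untreated cells passed with the spread of the 2 compared groups alone (adjusted p = 0.0399). The fall was -0.50 (adjusted p = 0.105) without 6 h replicate 1, -0.45 (adjusted p = 0.156) without 6 h replicate 2 and -0.36 (adjusted p = 0.143) without 24 h replicate 1. The dim HK2 probe set 222305_at lay between 6.53 and 7.03 and was not tested.

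**Figure D2:**
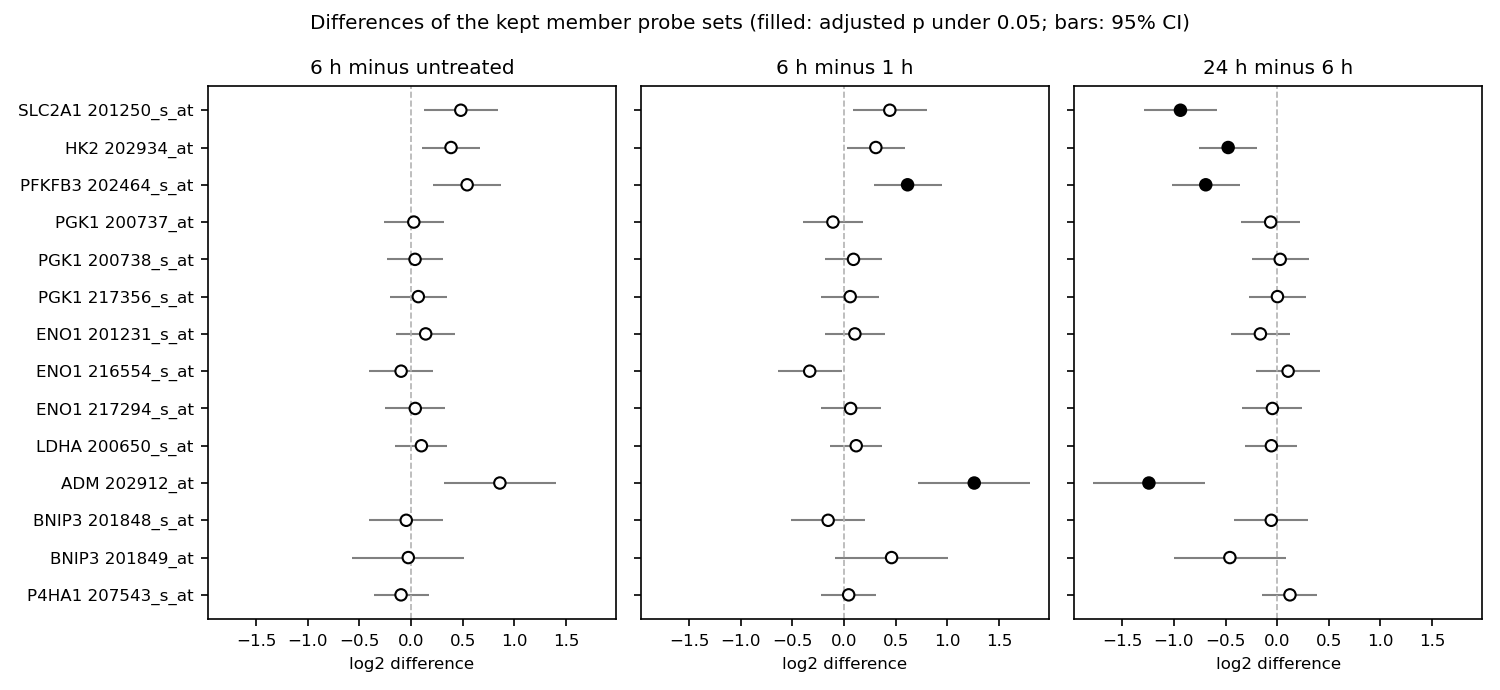
Differences on the log2 scale (x axis) of the 14 tested probe sets (y axis) in 3 comparisons. Points are limma estimates, bars 95% intervals, and filled points have an adjusted p under 0.05. Filled points are ADM and PFKFB3 from 1 to 6 h (1.26 and 0.61) and ADM, SLC2A1, PFKFB3 and HK2 from 6 to 24 h.

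LDHA, the enzyme that makes lactate, gave 13.46 and 13.46 in untreated cells, 13.52 and 13.36 at 1 h, 13.59 and 13.53 at 6 h, 13.55 and 13.45 at 24 h and 13.46 and 13.44 in ITGB4-transduced cells. The 6 h arrays were narrowly above the untreated, 1 h and ITGB4-transduced arrays and overlapped with the 24 h arrays, and the other groups overlapped. The difference at 6 h against untreated cells was 0.10, with a 95% interval from -0.15 to 0.35. The highest value of any probe set on any array was 14.28, and whether signal near the top of the scale narrowed the differences of LDHA was not tested.

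PGK1, the first enzyme of glycolysis to yield ATP, was read by 3 tested probe sets. The brightest, 200738_s_at, ran from 12.71 at 1 h to 13.01 at 24 h, and 217356_s_at from 12.45 to 12.71, both extremes at 1 h. The third, 200737_at, ran from 11.81 to 12.13, both extremes in untreated cells. Differences at 6 h against untreated cells were 0.04, 0.07 and 0.03, and the widest of these 3 intervals ran from -0.26 to 0.31. A 4th probe set, 217383_at, lay between 6.20 and 7.23 and was not tested.

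ENO1, which makes phosphoenolpyruvate, also had 3 tested probe sets. Probe sets 201231_s_at and 217294_s_at ran from 12.69 to 13.04 and from 12.48 to 12.82, with differences at 6 h against untreated cells of 0.14 and 0.04. The dimmer 216554_s_at, between 7.27 and 8.08, took another course, with a difference of -0.32 in ITGB4-transduced cells (adjusted p = 0.801) and of -0.33 between 6 and 1 h (adjusted p = 0.120). Both had an unadjusted p under 0.05, and neither bright ENO1 probe set had a difference of that sign and size. Whether the probe sets of PGK1, ENO1 and LDHA also read related sequences was not tested.

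BNIP3 was read by 2 probe sets that did not run together. On 201849_at the values were 10.08 and 10.22 in untreated cells, 10.02 and 9.30 at 1 h, 10.30 and 9.95 at 6 h, 9.88 and 9.45 at 24 h and 10.58 and 10.08 in ITGB4-transduced cells. The 1 h pair differed by 0.72, more than the difference of -0.49 between 1 h and untreated cells (adjusted p = 0.234). On 201848_s_at all values lay between 9.36 and 9.90, and the difference at 1 h against untreated cells was 0.11. P4HA1, the catalytic subunit that hydroxylates prolines of collagen, lay between 8.93 and 9.27, with differences against untreated cells from -0.14 at 1 h to 0.03 at 24 h.

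PDK1, the pyruvate dehydrogenase kinase induced by HIF, had 1 probe set with values between 7.04 and 7.55 and a second-highest value of 7.29, just under the filter. Without the filter its difference at 6 h against untreated cells was -0.10 and its largest difference was -0.25, between 24 h and untreated cells. Without the filter the lowest adjusted p of the 4 member probe sets left out ranged from 0.307 to 0.568.

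The rest of the glycolytic route was read by 24 tested probe sets of 17 other genes. At 6 h against untreated cells 1 was higher and 0 lower, where 3.88% of all tested probe sets were higher and 2.33% lower. Between 6 and 1 h 1 was higher and 1 lower, where 11.9% and 6.4% of all were, and between 24 and 6 h 1 was higher and 2 lower, where 6.95% and 12.5% of all were. A dim probe set of PKM, described below, makes up the higher call in both of the first comparisons and 1 of the 2 lower calls in the last. It passed the filter through the 6 h arrays alone, so these calls are not taken as a result for the list. PFKM, the muscle type phosphofructokinase, gave 11.04 and 11.16 in untreated cells, 11.18 and 11.07 at 1 h, 10.66 and 10.60 at 6 h, 11.06 and 11.25 at 24 h and 10.82 and 11.07 in ITGB4-transduced cells. It ran opposite to PFKFB3, lowest at 6 h on both arrays, with a fall of 0.50 (SE 0.13, adjusted p = 0.0258) from 1 to 6 h and a rise of 0.53 (adjusted p = 0.0178) to 24 h. The other phosphofructokinases, mentioned after their values were seen, were not lowest at 6 h over all arrays. PFKP gave 11.68 and 11.71 at 6 h and at most 11.61 elsewhere, with no call. PFKL 201102_s_at gave 9.33 and 9.31 at 6 h, between the untreated values of 9.20 and 9.53. These lay below its 1 h values (9.65 and 9.81) and its 24 h values (9.52 and 9.68), with no call. PFKL 211065_x_at ran alike, with 9.60 and 9.64 at 6 h, 9.90 and 9.78 at 1 h and 9.83 and 9.91 at 24 h. TIGAR, a phosphatase that lowers the activator made by PFKFB3, fell by 0.66 (SE 0.18, adjusted p = 0.0300) from 6 to 24 h.

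Pyruvate kinase PKM gave different answers on its probe sets. The bright 201251_at had a difference of 0.39 at 6 h against untreated cells (adjusted p = 0.175). The dim 213700_s_at, chosen for mention after its values were seen, gave 6.82 and 6.80 in untreated cells, 6.87 and 7.22 at 1 h, 7.50 and 7.58 at 6 h, 6.70 and 6.76 at 24 h and 6.74 and 6.72 in ITGB4-transduced cells. It passed the filter through the 6 h arrays alone, so its differences from 6 h are given with no test.

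**Figure D3:**
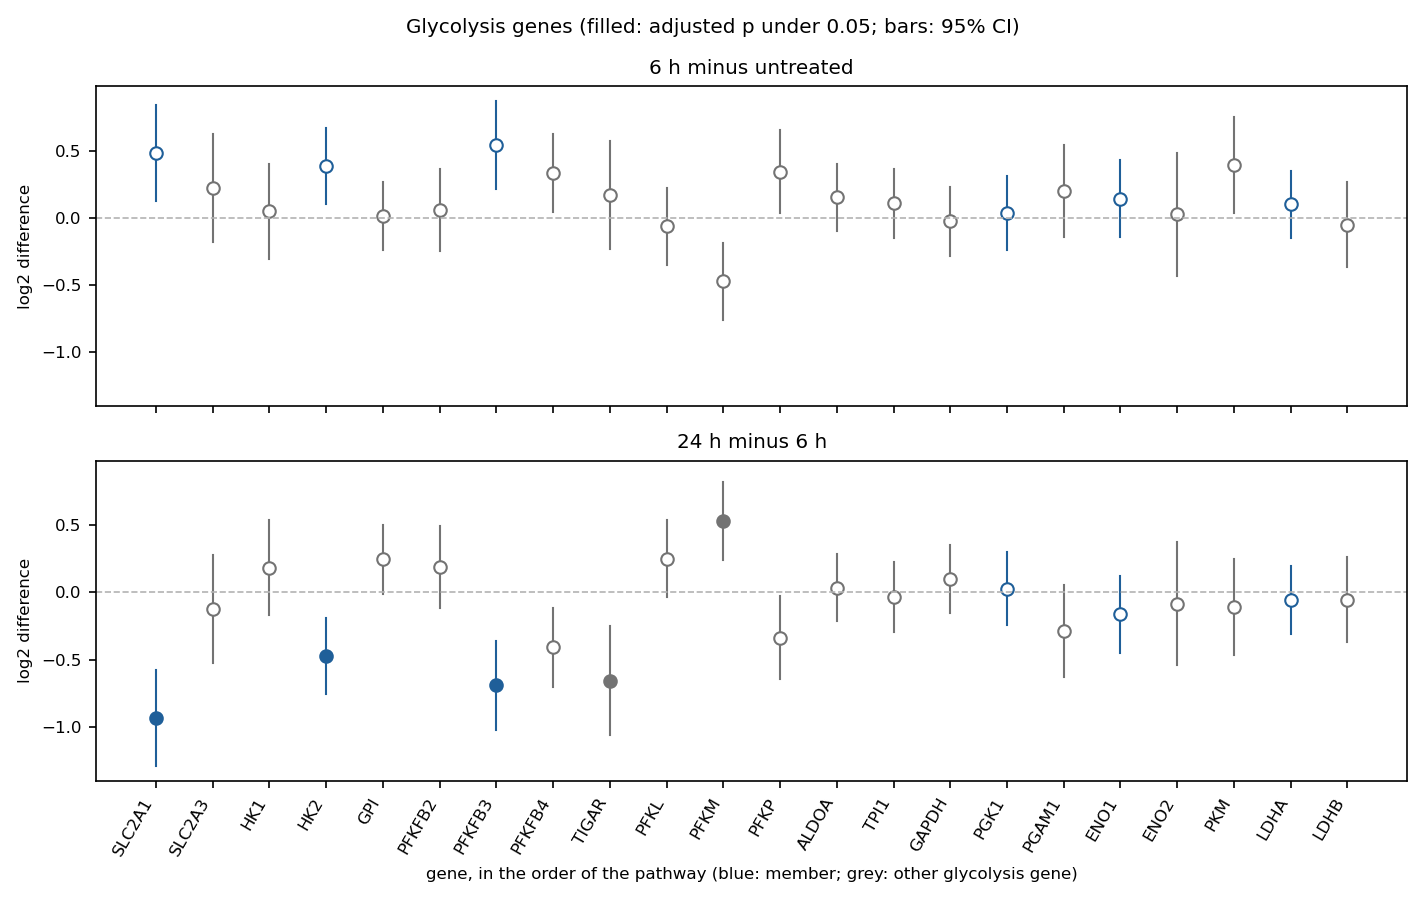
Differences on the log2 scale (y axis) of glycolysis genes in the order of the pathway (x axis), 1 probe set per gene, at 6 h against untreated cells (upper panel) and at 24 against 6 h (lower panel). Blue marks the genes followed here and grey the others, bars are 95% intervals and filled points have an adjusted p under 0.05. In the lower panel SLC2A1, HK2, PFKFB3 and TIGAR are lower and PFKM is higher at 24 h.

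Among 18 tested probe sets of 12 genes of pyruvate dehydrogenase and its kinases, 4 were higher and 3 lower between 6 and 1 h, where 11.9% and 6.4% of all were. Between 24 and 6 h 1 was higher and 2 lower, where 6.95% and 12.5% of all were. PDK2, another kinase of the complex, fell by 0.74 (SE 0.14, adjusted p = 0.00898) from 1 to 6 h and rose by 0.55 (adjusted p = 0.0237) to 24 h. The phosphatase PDP1, which opposes the kinases, gave 9.20 and 9.37 at 6 h, above the range of 8.21 to 8.92 of the other arrays, and fell by 0.98 (SE 0.18, adjusted p = 0.00491) to 24 h. DLD and DLAT (211150_s_at), subunits of the complex, rose by 0.49 (adjusted p = 0.0463) and 0.42 (adjusted p = 0.0468) from 1 to 6 h. The other DLAT probe sets, mentioned after their values were seen, were also called higher at 6 h than at 1 h. The group means at 1, 6 and 24 h were 8.48, 9.03 and 8.38 on 212568_s_at and 7.13, 8.02 and 7.40 on 213149_at. DLD had been 0.58 lower at 1 h than in untreated cells (adjusted p = 0.0483). The calls of DLD and of DLAT 211150_s_at between 6 and 1 h were lost with no filter and with median centring, and that of DLD at 1 h with median centring. PC, which carboxylates pyruvate, fell by 0.56 (adjusted p = 0.0246) from 1 to 6 h.

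HIF itself is set mainly by protein stability, which arrays do not read. HIF1A mRNA gave 10.78 and 10.88 in untreated cells, 9.97 and 10.35 at 1 h, 11.21 and 10.87 at 6 h, 10.73 and 10.39 at 24 h and 10.97 and 10.73 in ITGB4-transduced cells. The 1 h pair lay below all other arrays. HIF1A rose by 0.88 (SE 0.18, adjusted p = 0.0103) from 1 to 6 h, and its differences from untreated cells at 1 h (-0.67) and at 24 h did not pass (adjusted p = 0.0540 at 1 h). Of 10 tested probe sets of 9 HIF genes and regulators, 3 were lower at 24 h than at 6 h, where 12.5% of all were. They were ELOC (-0.66, adjusted p = 0.0126) and RBX1 (-0.41, adjusted p = 0.0471), parts of the ubiquitin ligase that removes HIF alpha subunits, and ARNT2 (-0.61, adjusted p = 0.0435), a partner subunit. EPAS1, the HIF2 alpha subunit, ranged from 7.43 to 8.12 on its tested probe set.

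Other genes known to be induced by hypoxia were read by 55 tested probe sets of 37 genes. At 1 h against untreated cells 1 was higher and 5 lower, where 0.58% of all were higher and 5.09% lower. The same counts were found at 6 h, where 3.88% and 2.33% of all were. Between 6 and 1 h, 6 were higher and 7 lower, where 11.9% and 6.4% of all were, and between 24 and 6 h, 6 were higher and 12 lower, where 6.95% and 12.5% of all were. At 24 h and in ITGB4-transduced cells 0 were called, with 14 and 2 at an unadjusted p under 0.05, and the Mulcom t called 0 in both.

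ADORA2B, an adenosine receptor, was also highest at 6 h. It gave 8.70 and 8.71 in untreated cells, 8.78 and 8.83 at 1 h, 9.46 and 9.71 at 6 h, 8.49 and 8.68 at 24 h and 8.86 and 8.34 in ITGB4-transduced cells. Both 6 h arrays were above all others. It was 0.87 higher at 6 h than in untreated cells (SE 0.17, adjusted p = 0.0167) and fell by 0.99 (adjusted p = 0.00359) to 24 h, a call kept when any array was left out.

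DDIT4, an inhibitor of mTOR signalling, took the opposite course, with 9.91 and 10.11 in untreated cells, 10.91 and 10.44 at 1 h, 9.56 and 9.02 at 6 h, 10.10 and 10.62 at 24 h and 10.05 and 9.66 in ITGB4-transduced cells. It fell by 1.38 (SE 0.24, adjusted p = 0.00627) from 1 to 6 h and rose by 1.07 (adjusted p = 0.0117) to 24 h. At 6 h against untreated cells MXI1, an antagonist of MYC, was 0.81 lower (adjusted p = 0.0109), VLDLR, a lipoprotein receptor, 0.80 lower (adjusted p = 0.0103), and KDM3A, a histone demethylase, 0.63 lower (adjusted p = 0.0380). At 1 h GYS1, glycogen synthase, was 0.68 higher (adjusted p = 0.0237), while PLOD2, a collagen lysyl hydroxylase, was 0.96 lower (adjusted p = 0.0257) and WSB1 was 0.85 lower (adjusted p = 0.0257).

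**Figure D4:**
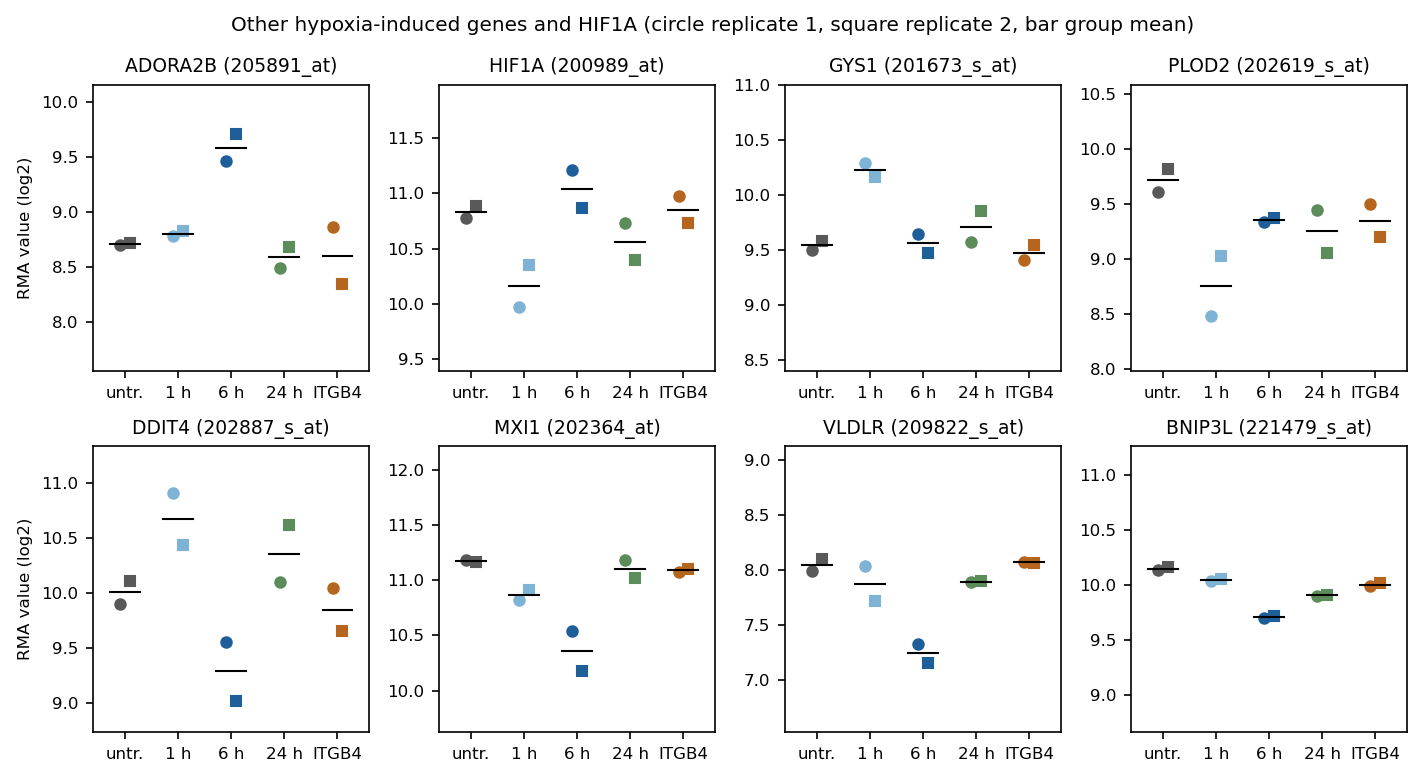
RMA log2 values (y axis) of HIF1A and 7 other hypoxia-induced genes in the 5 groups (x axis), with circles for replicate 1, squares for replicate 2 and bars for group means. ADORA2B is highest at 6 h on both arrays, while DDIT4, MXI1, VLDLR and BNIP3L are lowest there, and HIF1A and PLOD2 are lowest at 1 h.

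The partners of ADM, BNIP3 and P4HA1 were read from 3 further lists. The adrenomedullin receptor CALCRL lay between 4.98 and 6.56 on its 2 probe sets, and RAMP2 and RAMP3, which give it its ligand choice, between 5.84 and 6.75. None of these passed the filter, while the related peptide ADM2 did and had its largest difference against untreated cells at 1 h (0.22, adjusted p = 0.349).

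Of 22 tested probe sets of 12 mitophagy genes, 1 was higher and 3 lower at 6 h against untreated cells, where 3.88% and 2.33% of all were. Between 6 and 1 h 0 were higher and 6 lower, where 11.9% and 6.4% of all were, and between 24 and 6 h 6 were higher and 1 lower, where 6.95% and 12.5% of all were. BNIP3L, the closest relative of BNIP3, gave 10.13 and 10.16 in untreated cells, 10.03 and 10.06 at 1 h, 9.70 and 9.72 at 6 h, 9.90 and 9.91 at 24 h and 9.99 and 10.02 in ITGB4-transduced cells on 221479_s_at. The groups did not overlap, and BNIP3L was 0.44 lower at 6 h than in untreated cells (SE 0.11, adjusted p = 0.0392). Its other probe set, 221478_at, mentioned after its values were seen, was lower at 1 h (-0.68, adjusted p = 0.0312) and at 6 h (-0.68, adjusted p = 0.0296). The ATG8 relatives GABARAPL1 and GABARAP fell by 0.64 (adjusted p = 0.00724) and 0.50 (adjusted p = 0.0151) from 1 to 6 h and rose by 0.59 (adjusted p = 0.00696) and 0.47 (adjusted p = 0.0171) to 24 h. The autophagy receptor SQSTM1 was 0.58 higher at 6 h than in untreated cells (adjusted p = 0.0249).

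Of 12 tested probe sets of 9 genes of collagen hydroxylation, 0 were higher and 2 lower at 1 h, both of PLOD2, where 0.58% and 5.09% of all were. From 1 to 6 h PLOD1 and P3H1 fell by 0.53 (adjusted p = 0.0150) and 0.52 (adjusted p = 0.0179), and from 6 to 24 h CRTAP and PLOD1 rose by 0.66 (adjusted p = 0.0166) and 0.46 (adjusted p = 0.0222). Across all these lists, 51 differences of single named probe sets were called. Of these 1 (ADORA2B between 24 and 6 h) was kept when each of the 10 arrays was left out in turn, and 46 were not called by the Mulcom t. With no filter 6 were lost and with median centring 10, among the latter those of KDM3A and BNIP3L 221479_s_at at 6 h against untreated cells and of RBX1 and ARNT2 between 24 and 6 h.

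The genes whose values followed those of the 3 members with the widest range most closely over the 10 arrays were taken by Pearson's r. They were SLC7A6 (r = 0.967), an amino acid transporter, and POMP (r = 0.965), a proteasome assembly factor, for ADM. They were PSEN2 (r = 0.969) and UPP1 (r = 0.966), a uridine phosphorylase, for SLC2A1, and MFHAS1 (r = 0.977) and TLCD3A (r = 0.971) for PFKFB3. UPP1 gave 11.06 and 11.24 at 6 h, 10.04 and 10.23 at 24 h and 9.96 to 10.75 on the other 6 arrays. These genes were picked as the highest of all tested probe sets and the arrays share their groups, so the coefficients are a description.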

How the data were processed

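RNA of 10 samples was measured on Affymetrix hgu133a arrays. Per the labels, the authors used RMA and affy to turn probe intensities into normalized log2 values, which were deposited. Their presence calls were not used. In place of these calls, the 10176 probe sets whose second-highest value was at least 7.3, the 68 control probe sets apart, were tested. Symbols came from the platform annotation (19065 probe sets with 1 symbol, 1043 with several, 2107 with none). Differences were tested with limma 3.58.1 in R 4.3.3, with a mean per group, all arrays and no covariate, 5 residual degrees of freedom and a prior of 5.94, and Benjamini-Hochberg adjustment within each comparison over all tested probe sets. A gene of another list was named on its brightest tested probe set, at most 4 called each way per comparison or the 2 largest differences. The genes and lists were chosen with earlier results of these data known. The number of arrays limits the precision, and p-values measure the spread between duplicates. Alternatives were other filters, median centring, cyclic loess, gene means, a replicate block, other spreads and priors, the Mulcom t, wider adjustment and leaving out each array. The Mulcom t was given p-values from the t distribution and not from the study's permutations. The script was tested on simulated data. The Illumina arrays of the same RNA were not analysed here.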

Additional observations from a re-analysis of the deposited data

Results flagged for a closer look

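Among the 10 genes, 6 differences between HGF times passed the test of the difference itself, and were marked because the values of 1 gene differed between time points under the same growth factor. Between 6 and 1 h these were ADM (1.26, limma adjusted p = 0.00925) and PFKFB3 (0.61, adjusted p = 0.0193). Between 24 and 6 h they were ADM (-1.24, adjusted p = 0.00726), SLC2A1 (-0.94, adjusted p = 0.00410), PFKFB3 (-0.69, adjusted p = 0.0105) and HK2 (-0.47, adjusted p = 0.0258). All 6 rest on the same 6 h arrays, and only the SLC2A1 difference was called with every array left out in turn.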

How the results depend on the processing

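Of the counts of called member probe sets, that for 1 h against untreated cells was 0 and became 1 with the replicate block (ADM). That for 6 h against untreated cells was 0 and became 1 with the mean of the probe sets of a gene (PFKFB3), 2 with the replicate block (ADM and PFKFB3), 4 with the spread of the 2 compared groups, and 0 to 2 with an array left out. That for 6 against 1 h was 2 and became 0 with the Mulcom t and 0 to 2 with an array left out, and that for 24 against 6 h was 4 and became 0 and 1 to 4. The 6 differences called between HGF times had adjusted p from 0.0562 to 0.0957 with the Mulcom t, whose spread is not moderated. Under the other alternatives each of the 6 stayed called, apart from the left-out arrays named beside each gene above. No called difference changed sign. Differences called in neither fit changed sign in 7 of 98 cases under other settings and in 44 with an array left out, the largest of them 0.18 in size as reported and 0.36 with an array left out. Replicate numbers were checked for pairing by the correlation of replicate 1 minus replicate 2 between groups, over 10 pairs of groups. It ran from -0.14 (1 with 24 h) to 0.46 (6 with 24 h). Otherwise it was negative only for 1 h with ITGB4-transduced cells (-0.11). These values do not settle whether the replicate numbers carry an effect. The labels name no pairs, so the main fit had no block. For ADM at 6 h against untreated cells the limma adjusted p was 0.0613 without the block and 0.00322 with it. Over all probe sets, the counts higher and lower at 1 h against untreated cells (59 and 518) became 0 and 0 with the Mulcom t, without either untreated array or without 1 h replicate 1. At 6 h (395 and 237) they became 28 and 26 with the Mulcom t and ran from 3 to 570 and from 6 to 321 with an array left out, lowest without 6 h replicate 2. Between 6 and 1 h (1208 and 651) they became 77 and 108 with the Mulcom t and were 141 and 38 without 6 h replicate 2. Between 24 and 6 h (707 and 1276) they became 188 and 250 and were 123 and 329 without that array. With adjustment over the 4 comparisons with untreated cells, the counts at 24 h went from 0 and 0 to 0 and 17 and those of ITGB4-transduced cells from 5 and 0 to 27 and 10. Between 24 and 1 h they went from 1 and 0 to 36 and 11 with the spread of the 2 compared groups.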
